A study of Mus musculus with 18 samples.

Results

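The genes described here are 34 transcripts typical of macrophages, monocytes, dendritic cells and other antigen-presenting cells, followed through thymocytes sorted from grafted mouse thymi. They were taken from a list of gene names, and 33 of the 34 matched a name in the authors' deposited tables, out of 22619 genes in the count table. Ifi30 is not analysed here, and Itgam stands in the count table under 2 identifiers, so that 34 rows were read. The list covers the complement C1q chains, macrophage and monocyte surface and lysosomal genes, Fc receptors and their adaptors, class II presentation, lectins, integrins and plasmacytoid dendritic cell genes, and a last set of oxidase, inflammasome and nucleic acid sensing genes.

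The thymus holds macrophages that clear dying thymocytes and dendritic cells that show self peptides on class II molecules to developing T cells. Complement C1q is made by tissue macrophages and tags dying cells for uptake, and the class II chains pair with the invariant chain Cd74 until peptide is loaded. Developing T cells of the mouse are not known to make C1q or to present on class II, whereas the earliest thymic progenitors still share some transcripts with myeloid cells.

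The thymi were wild type and were collected 28 days after transplantation, per the labels' protocols. The thymi were made into cell suspensions and 2 populations were purified by FACS: DN3 cells, which carry neither CD4 nor CD8 and are assembling the T-cell receptor beta chain, and the more mature DP cells, which carry CD4 together with CD8. The labels give each library the condition turnover or autonomy, terms that in graft work stand for thymopoiesis fed by newly arriving progenitors and for thymopoiesis maintained by cells already in the graft. DN3 turnover and DP turnover have 4 libraries each, labelled RP1140A, RP1140B, RP1141A and RP1141B, DN3 autonomy has 5, labelled RP1133, RP1134, RP1135, RP1137 and RP1138, and DP autonomy has 5, labelled RP1133, RP1135, RP1136, RP1137 and RP1138. The wild-type genotype of the graft and the 28 days are shared by all 4 groups. Host genotype, strain, sex and age were not stated in the labels read here, and nothing says that the libraries of a group come from separate animals, so the p-values measure only the spread between these libraries. Per-library values are listed below in the order in which the libraries are named here.

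The DN3 libraries held 7426834 to 21808512 counts each, and the DP libraries 5032273 to 24191044. Levels are given as CPM, the reads of a gene scaled to library size with TMM factors, and a level per kilobase of exon is used wherever 2 genes are set side by side. A library in which 3 reads were found for a gene has a level of 0.114 to 0.568 CPM depending on its depth, which is the limit that a count of 0 allows and covers counting error only. The T-lineage gene Cd3e was read in every library at 68.3 to 280 CPM. Ptcra and Il2ra, which mark DN3 cells, had means of 264 and 416 CPM in DN3 turnover and of 413 and 392 CPM in DN3 autonomy, against 43.0 and 7.72 CPM in DP turnover and 82.3 and 29.8 CPM in DP autonomy, and Cd4, Cd8a and Cd8b1 were high in all DP libraries. The DN3 turnover library RP1141B stands apart, with 135 CPM of Cd4 and 385 CPM of Cd8a where the other DN3 turnover libraries had at most 1.96 and 7.34 CPM. For the listed genes, the DN3 tests of autonomy against turnover are therefore given with and without it. The tests of other lists, between stages and of the difference of effects include it unless stated. The DN3 autonomy libraries had 38.9 to 71.6 CPM of Cd8a and 69.6 to 131 CPM of Cd8b1, against 2.53 to 7.34 and 6.99 to 24.7 CPM in the other 3 DN3 turnover libraries. Over all genes tested, edgeR called 8.35% lower in DN3 autonomy and 0.861% higher in DP autonomy. Of 11 T-lineage and stage genes, it called Cd3g and Bcl11b lower in DN3 autonomy and Cd3g, Lck and Cd8b1 higher in DP autonomy (DESeq2 called 6 higher there). The part of these shifts in the results below was not tested. In sorted bulk samples, fewer cells of a type and less RNA per cell cannot be told apart.

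The summed level of the listed genes was lowest in DN3 autonomy and highest and most variable in DP autonomy. It was 345 ± 49.7 CPM (SD, n = 4) in DN3 turnover, with a range of 279 to 399 (279 to 357 without RP1141B), and 157 ± 14.1 CPM (SD, n = 5) in DN3 autonomy, with a range of 146 to 181. In the later stage it was 198 ± 55.3 CPM (SD, n = 4) in DP turnover, with a range of 132 to 267, and 490 ± 262 CPM (SD, n = 5) in DP autonomy, with a range of 245 to 903. The DN3 ranges do not overlap, and the DP ranges do, since DP autonomy RP1138 at 245 CPM lies below DP turnover RP1140A at 267 CPM. Cst3, which encodes the widely secreted protease inhibitor cystatin C, and Apoe, a lipid carrier of macrophages and other cells, held 39.5% of the sum in DN3 turnover, 71.9% in DN3 autonomy, 78.8% in DP turnover and 57.7% in DP autonomy. Without them the sums were 209, 44.1, 42.0 and 207 CPM in that order of groups. No test is given for these sums.

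**Figure D1:**
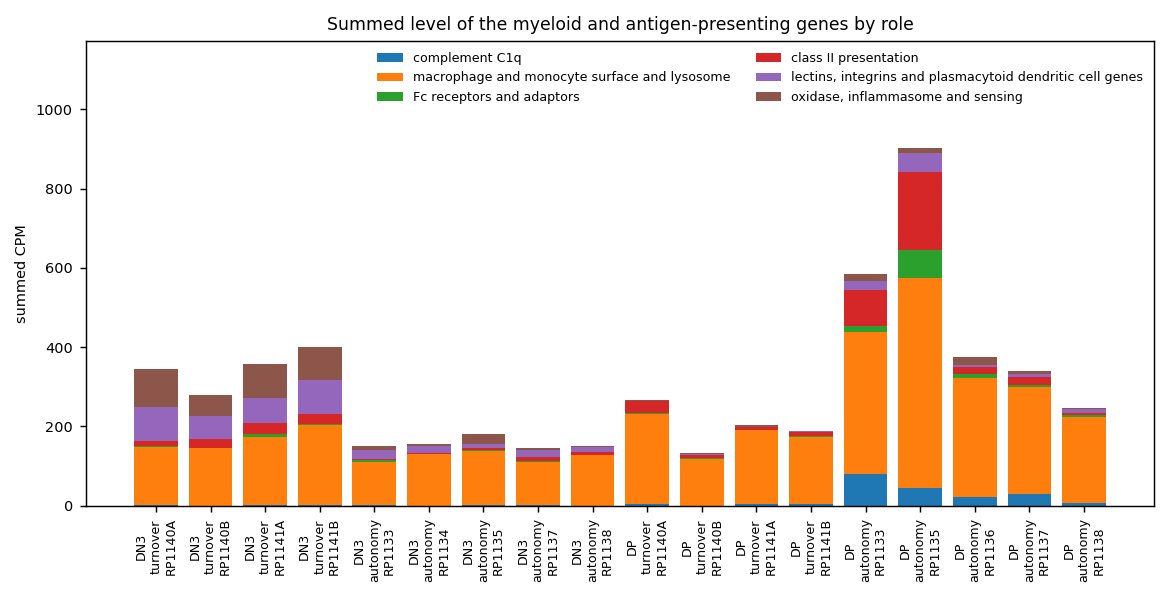
Summed CPM of the listed genes in each of the 18 libraries (horizontal axis, grouped by stage and condition), stacked by role. The 4 DN3 turnover libraries reach 279 to 399 CPM with wide lectin and oxidase segments, and the DP autonomy libraries RP1133 and RP1135 reach 585 and 903 CPM with wide class II segments.

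By the group in which their mean was highest, most genes fell to DP autonomy or DN3 turnover. Of the 32 genes with any read, 21 had their highest mean in DP autonomy, 6 in DN3 turnover, 4 in DP turnover and 1 in DN3 autonomy. The 6 genes highest in DN3 turnover were Clec12a, Casp1, Ncf4, Ncf1, H2-Ab1 and Pld4. The 21 highest in DP autonomy include all C1q chains, Cd74, H2-Aa, H2-Eb1, Csf1r, Clec7a, Tyrobp and Apoe. Ranking by mean also places Lyz2 there, at 26.7 CPM against 26.3 CPM in DN3 turnover, and Siglech, read in 1 library of DP autonomy. Cd14, the lipopolysaccharide co-receptor of monocytes, had no read in any library.

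**Figure D2:**
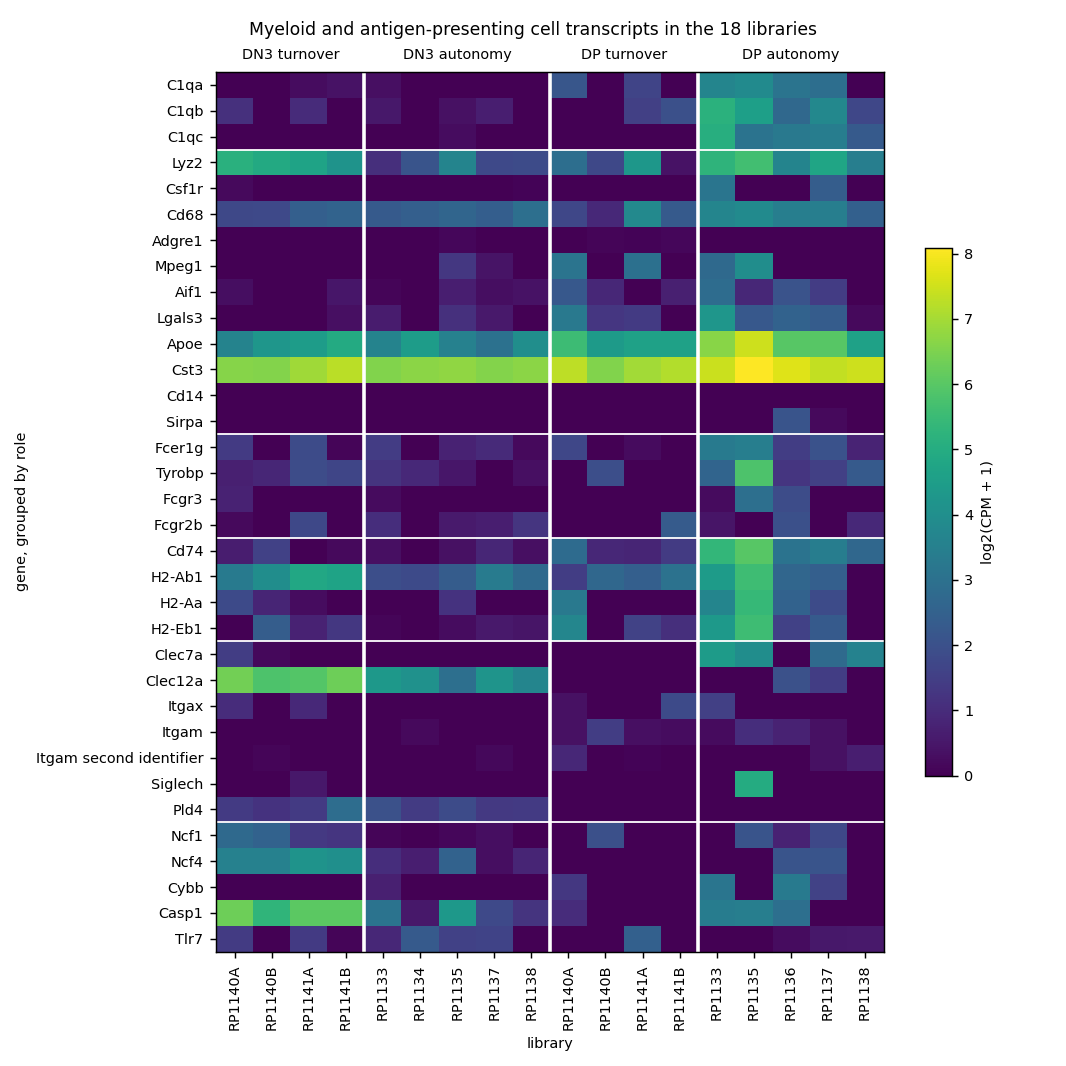
Level of each listed gene (rows, grouped by role between the white lines) in each library (columns, grouped by stage and condition), as log2(CPM + 1) in colour. Clec12a, Casp1, Ncf4 and Lyz2 are bright across the 4 DN3 turnover columns while the C1q rows there are dark, and the C1q and class II rows are bright in DP autonomy, most of all in RP1133 and RP1135.

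Among DN3 cells, 6 listed genes fell in autonomy and none rose. They were Clec12a, Casp1, Lyz2, Ncf4, Ncf1 and H2-Ab1, with mean levels 3.88 to 10.1 times lower in autonomy for 5 of them, while Ncf1 went from 182 reads to 4. Of the 34 rows, 13 had enough reads to be tested, and the edgeR quasi-likelihood test with Benjamini-Hochberg adjustment called 6 lower and 0 higher at an adjusted p of 0.05, with 6 at an unadjusted p under 0.05. DESeq2 and limma-voom also called 6 lower and 0 higher. Over all 10766 genes tested, 14.9% were called, 6.53% higher and 8.35% lower. The median log2 change of the 13 tested genes was -1.47, against -0.05 over all genes tested, and since a gene read in 1 group only is tested through that group, these counts are a description. Scaling to plain library totals moved the median of all genes by -0.15 and gave 433 genes higher and 1239 lower in place of 703 and 899, and the 6 listed genes were lower under each scaling.

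Sequences before RefSeq start sites of the genes that carry this difference are shown so that a reader can set them beside those of the genes higher in DP autonomy further down. Each is the 250 bases before the start site on the gene's strand, from RefSeq on build GRCm38.p6. Such windows were found for 23 of the listed genes, and capitals would mark a match to any of 3 motifs searched on both strands: CTGATTGG (the Y box of class II promoters), GAGGAAGT (the ETS core bound by PU.1) and an ETS-IRF composite, in which GGAA and GAAA stand 2 bases apart. Of 32851 windows of the same length over all genes, 3.829% hold the first, 2.441% the second and 2.301% the third. The 4 windows below, of Clec12a (chr6:129349994-129350243, plus strand), Casp1 (chr9:5298267-5298516, plus strand), Lyz2 (chr10:117282273-117282522, minus strand) and Ncf1 (chr5:134229626-134229875, minus strand), hold none of these letters, which says nothing more than that. Start sites differ between annotations. On the GENCODE positions the Clec12a window lies inside the gene, which spans 129342691 to 129365303. The Lyz2 window lies partly inside its gene, which ends at 117282321.
Clec12a: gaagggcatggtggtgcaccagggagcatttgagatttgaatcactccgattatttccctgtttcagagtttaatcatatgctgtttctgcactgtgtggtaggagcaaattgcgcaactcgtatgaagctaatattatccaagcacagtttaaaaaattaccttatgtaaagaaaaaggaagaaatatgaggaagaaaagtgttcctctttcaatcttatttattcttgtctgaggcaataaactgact
Casp1: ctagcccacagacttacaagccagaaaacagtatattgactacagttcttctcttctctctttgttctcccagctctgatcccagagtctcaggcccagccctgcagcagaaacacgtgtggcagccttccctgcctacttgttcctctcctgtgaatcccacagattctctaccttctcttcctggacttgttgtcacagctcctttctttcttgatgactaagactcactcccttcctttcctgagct
Lyz2: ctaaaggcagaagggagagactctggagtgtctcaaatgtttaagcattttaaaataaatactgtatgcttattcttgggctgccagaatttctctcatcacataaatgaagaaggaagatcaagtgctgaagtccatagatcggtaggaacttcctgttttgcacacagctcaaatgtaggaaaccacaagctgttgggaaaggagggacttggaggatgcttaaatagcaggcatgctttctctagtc
Ncf1: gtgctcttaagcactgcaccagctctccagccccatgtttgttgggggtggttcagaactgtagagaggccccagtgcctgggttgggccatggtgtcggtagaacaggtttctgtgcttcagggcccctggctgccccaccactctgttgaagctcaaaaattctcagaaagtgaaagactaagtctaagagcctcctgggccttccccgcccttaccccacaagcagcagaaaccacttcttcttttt

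Clec12a, which encodes an inhibitory C-type lectin receptor of myeloid cells, lies on chromosome 6 from 129342691 to 129365303 on the plus strand of GRCm38. It was read at 81.9, 55.8, 60.2 and 78.6 CPM in DN3 turnover and at 18.8, 15.9, 6.75, 17.0 and 11.8 CPM in DN3 autonomy. All turnover libraries lie above all autonomy libraries. The log2 change was -2.31 (SE 0.28, adjusted p = 0.000397), a 4.92-fold lower mean. Without library RP1141B it was -2.24 (adjusted p = 0.00139).

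Casp1, the inflammasome protease that matures interleukin precursors, was read at 78.1, 38.5, 65.4 and 65.2 CPM in DN3 turnover and at 7.52, 0.446, 18.8, 2.46 and 1.304 CPM in DN3 autonomy. The groups do not overlap, and the autonomy libraries spread widely, with RP1135 highest and RP1134 lowest. The log2 change was -3.35 (SE 0.72, adjusted p = 0.00949) with RP1141B and -3.32 (adjusted p = 0.0192) without it.

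Lyz2, the lysozyme of macrophages and granulocytes, stood at 34.3, 28.8, 25.0 and 17.0 CPM in DN3 turnover and at 1.15, 3.27, 11.5, 2.46 and 2.61 CPM in DN3 autonomy. The groups do not overlap, the closest pair being turnover RP1141B and autonomy RP1135. The log2 change was -2.65 (SE 0.53, adjusted p = 0.00709), and -2.81 (adjusted p = 0.00996) without RP1141B.

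Ncf4 and Ncf1 encode cytosolic subunits of the phagocyte NADPH oxidase. Ncf4 was read at 10.8, 10.8, 16.6 and 15.2 CPM in DN3 turnover and at 1.06, 0.594, 4.86, 0.235 and 0.782 CPM in DN3 autonomy. Ncf1 was read at 5.85, 4.82, 1.54 and 1.39 CPM in turnover and at 0.0885, 0, 0.0993, 0.235 and 0 CPM in autonomy, where the 5 libraries together held 4 reads and the mean lay under the level of 3 reads per library, so no fold is given. Neither gene overlaps between the groups, and the 2 RP1140 libraries are the high ones for Ncf1 and the low ones for Ncf4. The log2 changes were -3.14 (SE 0.66, adjusted p = 0.00879) for Ncf4 and -5.29 (SE 0.95, adjusted p = 0.00375) for Ncf1, and -3.07 (adjusted p = 0.0204) and -5.54 (adjusted p = 0.00611) without RP1141B. Ncf1 shares 11.14% of its exon bases with Gtf2ird2 on the opposite strand, and the labels do not say if reads were counted by strand. Cybb, which encodes the membrane subunit that carries out the oxidase reaction, had no read in DN3 turnover and 7 reads in DN3 autonomy, all in RP1133.

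H2-Ab1, the beta chain of the I-A class II molecule, was read at 8.93, 14.6, 27.7 and 24.8 CPM in DN3 turnover and at 2.83, 2.53, 4.07, 9.27 and 5.84 CPM in DN3 autonomy. Here the groups overlap, since autonomy RP1137 exceeds turnover RP1140A. The log2 change was -1.96 (SE 0.44, adjusted p = 0.0115), and -1.80 (adjusted p = 0.0303) without RP1141B. Its partner chain H2-Aa did not follow it in level. H2-Aa stood at 0.231 CPM per kilobase in DN3 turnover where H2-Ab1 stood at 7.41, and Cd74 at 0.398 and H2-Eb1 at 0.819 CPM per kilobase were low as well. These 3 genes were too low to be tested in DN3 cells.

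**Figure D3:**
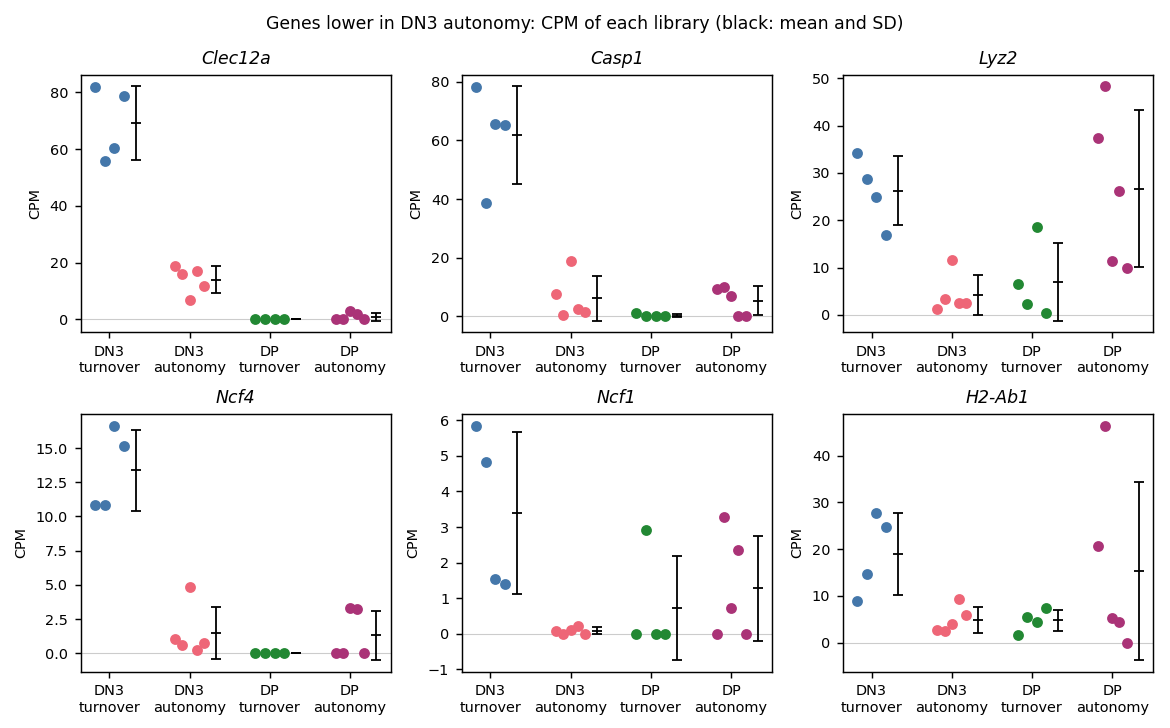
CPM of the 6 listed genes that fell in DN3 autonomy (vertical axes, one panel per gene), each point a library, black bars the mean and SD of each of the 4 groups. Clec12a lies at 55.8 to 81.9 CPM in DN3 turnover and at no more than 18.8 CPM in DN3 autonomy, and has no read in DP turnover.

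For 5 of the 13 tested rows all autonomy libraries lie below all turnover libraries, as for 10.1% of all genes tested. Leaving out any of the 9 DN3 libraries kept all 6 calls. Taking the contrast from the fit of all 18 libraries, which pools the spread of all groups, left only Lyz2 called, with adjusted p from 0.0576 for Clec12a to 0.178 for H2-Ab1 for the other genes. Summing the A and B libraries of each turnover number, which leaves 2 turnover samples, ended the calls of H2-Ab1, Ncf4 and Casp1 (adjusted p = 0.0514, 0.0560 and 0.0561).

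Per kilobase of exon, the order of levels in DN3 turnover was Cst3 at 91.8 CPM, Casp1 at 41.3, Lyz2 at 20.0, Clec12a at 12.5, Apoe at 9.40, H2-Ab1 at 7.41 and Ncf4 at 6.62. The list was uneven in the same libraries. Lyz2, Cd68 and Tyrobp were read in all 4. C1qc, Adgre1 (the surface antigen by which mouse macrophages are commonly stained), Cybb, Mpeg1, Cd14, Sirpa and the main Itgam identifier had no read in any DN3 turnover library. Csf1r, the growth factor receptor on which macrophages depend, had 2 reads over the 4 libraries, C1qa had 7 and C1qb had 29.

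The other 7 tested genes did not pass in DN3 cells. Apoe was read at 11.1, 17.96, 21.3 and 30.0 CPM in turnover and at 11.3, 20.9, 10.6, 7.15 and 14.9 CPM in autonomy, with overlapping groups and a log2 change of -0.63 (SE 0.35, adjusted p = 0.235). Cst3 stood at 97.8, 96.1, 120 and 151 CPM in turnover and at 92.8, 101, 107, 94.9 and 102 CPM in autonomy (log2 change -0.23, SE 0.16, adjusted p = 0.353). Both ranges overlap, with RP1141B the highest library for each gene, and without it the log2 changes were -0.37 for Apoe and -0.08 for Cst3. Tyrobp, the signalling adaptor of many myeloid and NK receptors, had a log2 change of -1.47 (SE 0.89, adjusted p = 0.277), and Fcer1g, the shared Fc receptor chain, one of -0.63 (SE 1.19, adjusted p = 0.760). Cd68, a lysosomal protein of macrophages, and Tlr7, an RNA sensor, had positive values of 0.47 (SE 0.43, adjusted p = 0.484) and 1.03 (SE 1.23, adjusted p = 0.601). Without RP1141B the values were -1.27 for Tyrobp, -1.01 for Fcer1g, 0.68 for Cd68 and 0.66 for Tlr7, none of them called. Pld4, an endolysosomal nuclease, was read in all 9 DN3 libraries at 1.26 to 6.39 CPM, and its log2 change of -0.40 (SE 0.62, adjusted p = 0.699) turned to 0.46 without library RP1141B, which held the highest value. The authors' deposited table lists 0.38 for it. That table lists the same 6 genes past an adjusted p of 0.05 in DN3 cells, from 6.57e-13 for Clec12a to 0.00379 for Casp1.

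Among DP cells, C1qc and Clec7a rose in autonomy and no listed gene fell. Neither gene had a read in any of the 4 DP turnover libraries, so their mean levels of 12.5 and 10.5 CPM in autonomy are at least 47.7-fold and at least 40.0-fold higher, taking 3 reads per library as the floor. These bounds do not allow for the spread of the autonomy libraries, where RP1133 held 52.3% of the C1qc level and RP1136 had no read of Clec7a. Of the 34 rows, 18 were tested, and edgeR called 2 higher and 0 lower, with 8 at an unadjusted p under 0.05. DESeq2 called 3 higher and 0 lower, and limma-voom 1 higher and 0 lower. Over all 10339 genes tested in DP cells, 1.72% were called, 0.861% higher and 0.861% lower. The median log2 change of the tested genes was 2.22 against -0.02 over all genes. C1qc and Clec7a passed the filter on low counts through the autonomy libraries alone. Other tested genes entered largely through autonomy too, among them Tyrobp and H2-Aa, each read in 1 DP turnover library, and Fcer1g. Entry of this kind can draw the median upward, so these counts and the median are a description. With C1qc and Clec7a set at their bounds, which lie above the median, it could not move and was 2.22. That setting leaves the other genes as they were.

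The windows before the start sites of the genes that rose and of the class II genes are shown next, with the same 3 motifs in capitals. C1qc (chr4:136892915-136893164, minus strand) holds GAGGAAGT on the reverse strand, read here as its complement, at base -195 from the RefSeq start site. On the GENCODE positions, where C1qc ends at 136893065, part of this window lies inside the gene. Clec7a (chr6:129472780-129473029, minus strand) holds the ETS-IRF composite on the reverse strand at -66, and a further RefSeq start site for the gene lies 6 bases away. H2-Aa (chr17:34287824-34288073, minus strand) and H2-Eb1 (chr17:34305617-34305866, plus strand) hold the Y box at -51 and -62. The only other listed gene with a match was Fcgr2b, for the ETS-IRF composite. Each match is a description of the letters and no evidence of binding.
C1qc: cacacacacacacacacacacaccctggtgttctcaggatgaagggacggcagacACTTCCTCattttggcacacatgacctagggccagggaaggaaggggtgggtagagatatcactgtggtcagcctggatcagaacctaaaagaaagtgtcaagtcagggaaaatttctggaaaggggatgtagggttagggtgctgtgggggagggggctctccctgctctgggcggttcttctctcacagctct
Clec7a: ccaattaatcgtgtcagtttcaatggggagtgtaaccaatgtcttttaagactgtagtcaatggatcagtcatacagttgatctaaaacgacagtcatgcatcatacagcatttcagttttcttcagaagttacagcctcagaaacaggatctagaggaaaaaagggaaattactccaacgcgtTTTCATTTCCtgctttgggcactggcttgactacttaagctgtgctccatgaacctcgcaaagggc
H2-Aa: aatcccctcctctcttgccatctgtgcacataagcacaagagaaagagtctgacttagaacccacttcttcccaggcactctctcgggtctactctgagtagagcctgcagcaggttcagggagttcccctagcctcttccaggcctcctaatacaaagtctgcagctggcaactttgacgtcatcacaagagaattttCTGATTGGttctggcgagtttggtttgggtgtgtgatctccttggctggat
H2-Eb1: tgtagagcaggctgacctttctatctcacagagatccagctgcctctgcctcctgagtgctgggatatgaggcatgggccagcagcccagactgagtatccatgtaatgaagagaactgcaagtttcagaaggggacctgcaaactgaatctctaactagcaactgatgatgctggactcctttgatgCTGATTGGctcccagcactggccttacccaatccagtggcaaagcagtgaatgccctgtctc

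C1qc, the C chain of complement C1q, lies on chromosome 4 from 136889804 to 136893065 on the minus strand, beside C1qa and C1qb. It was read at 32.7, 7.43, 8.73, 9.75 and 3.93 CPM in DP autonomy, from 26 to 203 reads a library. Every DP autonomy library lies above the DP turnover libraries, with RP1133 highest and RP1138 lowest. Its adjusted p was 0.00935, and with any DP library left out the highest was 0.0292. DESeq2 gave no adjusted p for it, nor for Clec7a, under its filter on low counts.

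The sister chains had reads in DP turnover and did not pass. C1qb stood at 0, 0, 1.90 and 2.93 CPM in DP turnover and at 35.2, 22.7, 5.61, 12.8 and 2.27 CPM in DP autonomy, with a log2 change of 3.67 (SE 1.29, adjusted p = 0.158). C1qa stood at 3.50, 0, 2.14 and 0 CPM in turnover and at 11.7, 13.5, 7.69, 6.58 and 0 CPM in autonomy, with a log2 change of 2.50 (SE 1.54, adjusted p = 0.451). For both genes only autonomy RP1138 reaches into the turnover range. The 3 chains summed to 79.7 CPM in the highest autonomy library and 6.19 CPM in the lowest, and to at most 4.04 CPM in DP turnover. In DN3 cells their sum never exceeded 1.19 CPM.

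Clec7a, the C-type lectin receptor for fungal beta-glucan, was read at 20.8, 14.8, 0, 5.96 and 10.9 CPM in DP autonomy, so 4 of 5 libraries hold it and RP1136 does not. Its adjusted p was 0.0395. The call was lost with limma-voom (adjusted p = 0.194), with the A and B libraries summed (0.152) and with any DP turnover library left out (0.0608 without RP1140A, 0.0901 without RP1140B, 0.0909 without RP1141A and 0.0784 without RP1141B). Without autonomy RP1133, RP1135, RP1137 or RP1138 it no longer passed the filter and was not tested, and without RP1136 it kept its call.

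**Figure D4:**
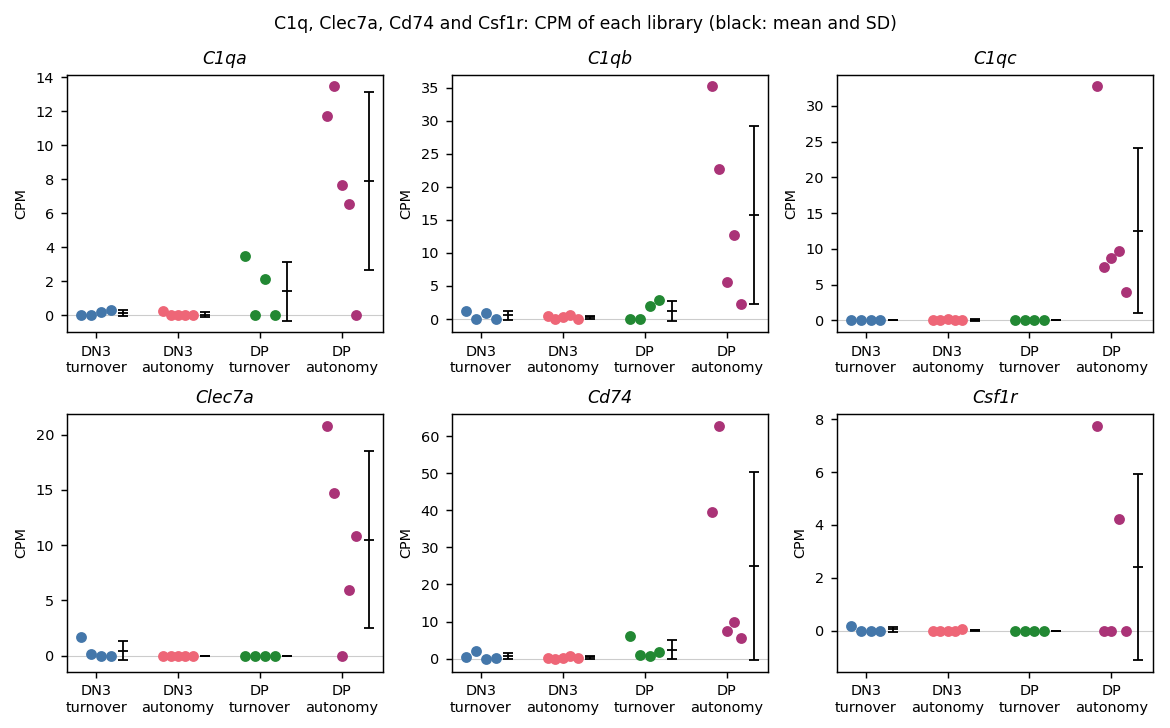
CPM of C1qa, C1qb, C1qc, Clec7a, Cd74 and Csf1r (vertical axes, one panel per gene), each point a library, black bars the mean and SD of each of the 4 groups. C1qc is read in all 5 DP autonomy libraries at 3.93 to 32.7 CPM and in no turnover library of either stage, and Csf1r is read above 0.158 CPM only in 2 DP autonomy libraries.

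The class II genes showed higher means and a very wide spread in DP autonomy. Cd74, the invariant chain, stood at 6.12, 0.875, 0.797 and 1.67 CPM in DP turnover and at 39.6, 62.9, 7.38, 9.75 and 5.44 CPM in DP autonomy, with a log2 change of 3.45 (SE 0.91) that missed the threshold (adjusted p = 0.0741). Only autonomy RP1138 lies below the highest turnover library. H2-Aa was read at 8.74, 0, 0 and 0 CPM in turnover and at 11.7, 41.3, 4.88, 2.59 and 0 CPM in autonomy (adjusted p = 0.536). H2-Eb1 was read at 12.1, 0, 2.02 and 1.15 CPM in turnover and at 19.5, 46.3, 1.97, 3.84 and 0 CPM in autonomy (adjusted p = 0.566), and H2-Ab1 at 1.75, 5.48, 4.47 and 7.32 CPM against 20.6, 46.4, 5.30, 4.42 and 0 CPM (adjusted p = 0.482). For all 3 chains the groups overlap, RP1133 and RP1135 are the high autonomy libraries, and RP1138 has no read. The 4 genes summed to 197 CPM in RP1135 and 5.44 CPM in RP1138. Cd74 passed under DESeq2 (adjusted p = 0.000879), without the filter on low counts (0.0425), without turnover RP1140A (0.0446) and without autonomy RP1138 (0.0484).

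Apoe stood at 46.0, 20.2, 23.7 and 24.0 CPM in DP turnover and at 100, 178, 61.7, 62.5 and 23.7 CPM in DP autonomy (log2 change 1.58, SE 0.47, adjusted p = 0.104). Cst3 stood at 153, 92.3, 123 and 141 CPM in turnover and at 171, 271, 206, 160 and 178 CPM in autonomy (log2 change 0.62, SE 0.20, adjusted p = 0.127). Cst3 did not overlap between the groups, as held for 4.22% of all genes in the higher direction, and Apoe overlapped through RP1138 alone. Lyz2 stood at 6.55, 2.40, 18.6 and 0.314 CPM in turnover and at 37.5, 48.3, 11.4, 26.2 and 9.97 CPM in autonomy (log2 change 1.93, SE 0.83, adjusted p = 0.256), with overlapping groups. DESeq2 called Apoe (adjusted p = 0.00934) and Cst3 (0.0360), and the authors' deposited table lists C1qb at an adjusted p of 0.0231, Cd74 at 0.00135, Apoe at 0.0152 and Cst3 at 0.0451 besides C1qc at 4.24e-11 and Clec7a at 9.08e-07.

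Among the Fc receptor genes, Tyrobp stood at 0, 2.82, 0 and 0 CPM in DP turnover and at 5.11, 56.3, 1.35, 1.92 and 3.93 CPM in DP autonomy (log2 change 4.15, SE 1.64, adjusted p = 0.210). RP1135 held 82.05% of the Tyrobp level of that group, and without this library the log2 change was 2.02. Fcgr3, an activating IgG receptor, was read in 3 DP autonomy libraries, at most at 6.69 CPM, and in no DP turnover library. Fcgr2b, the inhibitory IgG receptor, stayed at or under 3.98 CPM in all 18 libraries.

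Several genes were read in only some of the DP autonomy libraries. Csf1r was read at 7.76 CPM in RP1133 and 4.23 CPM in RP1137 and had no read in the other 3 or in DP turnover. It shares 15.12% of its exon bases with Hmgxb3 on the opposite strand. Siglech, a marker of plasmacytoid dendritic cells, was read at 30.4 CPM in RP1135 and at 0 in the 4 other libraries, and Spi1, the gene of the myeloid factor PU.1, at 5.20 CPM in RP1135 and at 0 in the other 4. Clec12a was read at 3.01 and 1.78 CPM in RP1136 and RP1137 and Ncf4 at 3.33 and 3.27 CPM in the same pair of libraries, with no read in the other DP autonomy libraries. Casp1 was read at 9.46, 9.98, 6.76, 0 and 0 CPM, so it was present where Clec12a was absent in RP1133 and RP1135. Of the 31 rows with a read in DP autonomy, 17 were highest in RP1135, 7 in RP1133, 5 in RP1136, 2 in RP1138 and 0 in RP1137. RP1138 held reads for 14 rows and the others for 22 to 25.

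The remaining genes were low throughout. Cd68 reached 13.5 CPM at most, Lgals3 (a galectin of macrophages) 17.98 CPM, Mpeg1 (a macrophage pore-forming protein) 14.8 CPM, Cybb 9.15 CPM and Aif1 (an actin-binding protein of macrophages) 6.25 CPM, each of these maxima in a DP autonomy library, and none of them passed the test of autonomy against turnover in DP cells. Adgre1, Itgax and both Itgam identifiers never exceeded 2.51 CPM in any library. The 2 Itgam identifiers share 68.67% of the Itgam exon bases, so the split of reads between them is uncertain. Sirpa was read in 2 DP autonomy libraries only, and Pld4 in no DP library.

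The autonomy effect differed between the stages for 6 listed genes, each with a more positive effect in DP than in DN3 cells. In the interaction contrast of the 18-library fit, 26 rows were tested and edgeR called Clec12a, Clec7a, Ncf4, Casp1, Lyz2 and Apoe, 6 higher and 0 lower, where 5.49% of the 11521 genes tested were called, 2.88% in the positive and 2.61% in the negative direction. At an unadjusted p under 0.05 there were 13, DESeq2 called 11 higher and 0 lower, and limma-voom 6 higher and 0 lower. Genes read mainly in 1 group are tested largely through that group, so these counts are a description. For Lyz2 the log2 difference of the effects was 4.57 (SE 1.11, adjusted p = 0.0194), from -2.65 in DN3 to 1.93 in DP cells. For Apoe it was 2.22 (SE 0.63, adjusted p = 0.0436), from -0.63 to 1.58, and 12 of the 18 fits that left out a library lost this call, the adjusted p reaching 0.107 without DN3 turnover RP1141B. Clec12a, Ncf4 and Clec7a had adjusted p of 0.00564, 0.0145 and 0.0133 and Casp1 one of 0.0172, and their fitted sizes are no estimate of a fold, because DP turnover held at most 7 reads of each. C1qc and Pld4, unread in both groups of a contrast, gave no usable estimate. With limma-voom the calls of Casp1 (adjusted p = 0.0560), Apoe (0.0685) and Clec7a (0.112) were lost. With the RP number as a replicate block only Lyz2 kept its call, with the values given in the last section. Beside these, Cd74 had a difference of 4.44 (SE 1.46, adjusted p = 0.0831) and H2-Ab1 one of 3.63 (SE 1.26, adjusted p = 0.102).

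**Figure D5:**
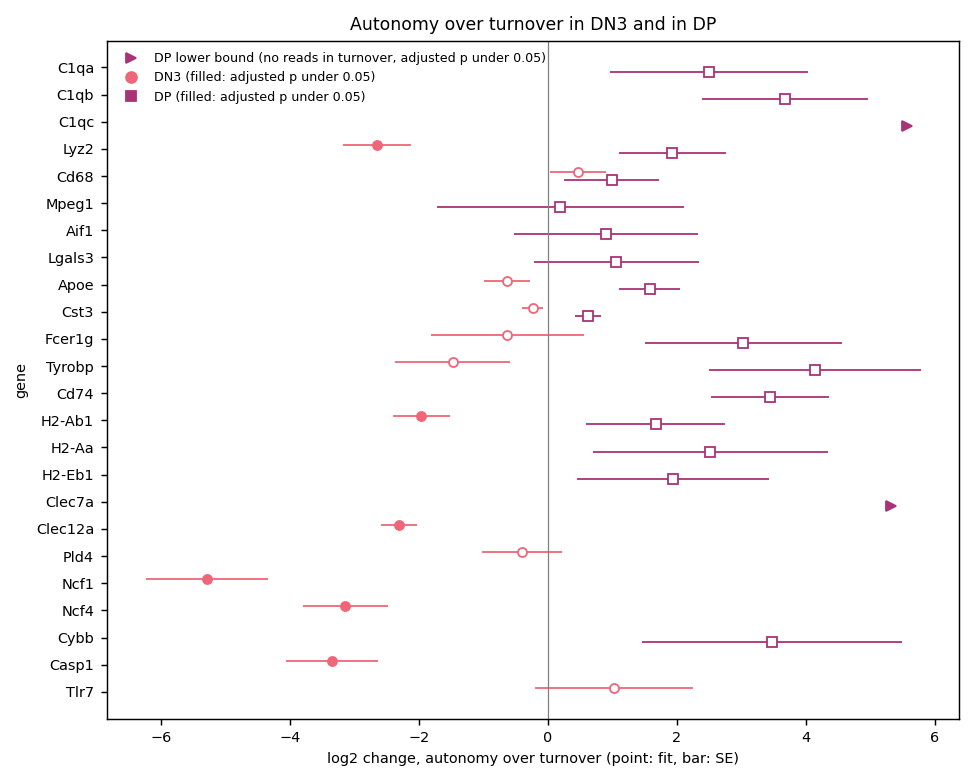
Log2 change of autonomy over turnover (horizontal axis) for each listed gene that was tested in DN3 cells (circles) or DP cells (squares), with SE bars and filled symbols at an adjusted p under 0.05. Triangles are lower bounds for C1qc and Clec7a, which had no read in DP turnover. The filled DN3 circles lie between -1.96 and -5.29. The DP symbols all lie above 0, most with wide bars and Cst3 and Apoe with narrower ones.

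The stages themselves were compared within each condition in the same fit. In turnover, DP cells had less Clec12a, Ncf4, Casp1 and Pld4 than DN3 cells and more Mpeg1 and Lgals3, 4 lower and 2 higher of 26 rows tested, where 34.9% of all genes were called, 19.1% lower and 15.8% higher. Several of these genes were read mainly in some groups and entered the test through them, so these counts too are a description. Clec12a, Ncf4 and Pld4 had no read in DP turnover, and by their DN3 turnover means were at least 264-fold, at least 51.0-fold and at least 10.3-fold lower there (adjusted p = 6.14e-06, 0.000926 and 0.000781). The Pld4 bound rests largely on RP1141B, which held 58.9% of its DN3 turnover level, and is smaller without that library. Its call stayed without RP1141B (edgeR adjusted p = 0.00283). Casp1 fell from 61.8 ± 16.7 CPM (SD, n = 4) to 0.255 ± 0.510 CPM (SD, n = 4), with an adjusted p of 0.000809 from edgeR. Mpeg1 was read in 2 DP turnover libraries only, at 7.57 and 6.99 CPM, and its call (adjusted p = 0.0411) and that of Lgals3 (0.0246) were lost with limma-voom (0.270 and 0.0759) and without several single libraries, among them DP turnover RP1140A (0.0668 and 0.0894). Without DN3 turnover RP1141B, Mpeg1 lost its call (edgeR adjusted p = 0.0773) and Lgals3 kept it (0.0161).

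In autonomy, DP cells had more of 12 genes than DN3 cells and less of 2, of 26 rows tested, where 49% of all genes were called, 23.7% higher and 25.2% lower. C1qc and Clec7a, among others, were read mainly in DP autonomy and entered the test largely through it. These counts are therefore a description. The 12 were C1qa, C1qb, C1qc, Cd74, H2-Aa, H2-Eb1, Clec7a, Tyrobp, Lyz2, Apoe, Lgals3 and Cst3, and the 2 were Clec12a and Pld4. Cd74 rose from 0.329 ± 0.300 CPM (SD, n = 5) to 25.0 ± 25.3 CPM (SD, n = 5), a log2 change of 6.20 (SE 1.13, adjusted p = 0.000133, edgeR). C1qb rose by 5.86 (SE 1.51, adjusted p = 0.00307), Lyz2 by 2.67 (SE 0.76, adjusted p = 0.00617) and Apoe by 2.71 (SE 0.44, adjusted p = 3.97e-05) on the log2 scale. Clec7a, unread in DN3 autonomy, was at least 34.5-fold higher in DP cells. Without DP autonomy RP1135 the calls of Tyrobp (adjusted p = 0.159) and H2-Aa (0.103) were lost, and without RP1133 that of Lgals3 (0.118). H2-Aa and Lgals3 also missed the threshold without some single DN3 autonomy libraries (adjusted p = 0.0565 to 0.0660), and H2-Aa with DESeq2 (0.0557) and H2-Eb1 with limma-voom (0.0893). Clec12a fell by 3.72 (SE 0.78, adjusted p = 0.000748), and Pld4, unread in DP cells, was at least 5.74-fold lower.

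A second list of 54 other genes of macrophages, dendritic cells and antigen processing was read beside these. Over all genes tested in DN3 cells, 8.35% were called lower and 6.53% higher. Of the second list edgeR tested 21 there and called 7 lower and 0 higher (8 at an unadjusted p under 0.05, 6 lower and 0 higher with DESeq2, 9 lower and 1 higher with limma-voom). The largest were H2-DMb1, a chain of the class II peptide exchange factor, with a log2 change of -4.04 (SE 0.86, adjusted p = 0.00925), the haemoglobin scavenger receptor Cd163 with -3.28 (SE 0.47, adjusted p = 0.00113) and the chemokine receptor Ccr2 with -3.18 (SE 0.92, adjusted p = 0.0358). In DP cells edgeR tested 20 and called 0 in either direction (1.72% over all genes), with 4 at an unadjusted p under 0.05, 2 higher with DESeq2 and 0 with limma-voom. The difference of the autonomy effect passed for 3 of 28, all positive (2.88% of all genes in that direction): Ms4a6c, Ctsd at 1.28 (SE 0.23, adjusted p = 0.00287) and Ctsb at 0.79 (SE 0.22, adjusted p = 0.0397). Between stages in autonomy, 8 of 28 were higher in DP cells and 3 lower (23.7% and 25.2% of all genes), the cysteine protease Ctss (3.52, SE 1.39, adjusted p = 0.0414) among the higher ones. In turnover 3 of 28 were higher and 5 lower (15.8% and 19.1% of all genes), Ms4a6c at -6.82 (SE 1.34, adjusted p = 0.000565) and Cd163 at -3.94 (SE 1.39, adjusted p = 0.0332) among the lower ones. Irf8, a factor of dendritic cells and monocytes, was at 8.004 to 23.7 CPM in DN3 cells of both conditions, at 0.723 to 5.44 CPM in DP turnover and at 0.755 to 31.2 CPM in DP autonomy.

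Markers of other cells moved with the DN3 difference in part. The share of all genes called in DN3 cells was 8.35% lower and 6.53% higher. The 9 granulocyte and mast cell markers summed to 50.7 to 120 CPM in DN3 turnover and 3.02 to 27.5 CPM in DN3 autonomy, 6 of the 9 having no read in either group, and the level was almost wholly Cpa3, which encodes a mast cell carboxypeptidase also read in progenitors (log2 change -2.81, SE 0.58, adjusted p = 0.00786), while S100a8, S100a9 and Elane had at most 0.0313 CPM on average in DN3 cells. The 7 thymic epithelium markers summed to 100 to 129 CPM and 37.0 to 94.1 CPM, with Epcam lower in autonomy (-1.25, SE 0.29, adjusted p = 0.0133), and the 9 NK and innate lymphoid markers to 1238 to 1713 CPM and 1857 to 2553 CPM, with Nkg7 lower (-2.93, SE 0.68, adjusted p = 0.0134) and Tbx21, Id2 and Gzma higher. In DP cells edgeR could test 0 of the 9 granulocyte and mast cell markers, 2 of the 7 epithelium markers and 4 of the 9 NK and innate lymphoid markers. Of those tested it called 0 (1.72% over all genes, 1 NK and innate lymphoid gene at an unadjusted p under 0.05, 1 lower with DESeq2, 0 with limma-voom). The sums of the 3 lists had overlapping ranges of 0 to 6.05 and 0 to 3.97 CPM, 10.7 to 32.7 and 10.3 to 22.3 CPM, and 197 to 462 and 114 to 282 CPM, turnover before autonomy. B-cell markers were dominated by Ighm, which averaged 966 to 1483 CPM over the 4 groups, and Cd79b was lower in DN3 autonomy (-1.48, SE 0.32, adjusted p = 0.00975). Erythroid and platelet markers summed on average to 4.40, 3.60, 5.87 and 2.66 CPM, and fibroblast and endothelium markers to 93.9, 53.7, 125 and 136 CPM, in DN3 turnover, DN3 autonomy, DP turnover and DP autonomy. In DN3 cells the latter ranged from 83.2 to 103 CPM in turnover and from 43.3 to 65.5 CPM in autonomy, with Pecam1 lower in autonomy (-0.82, SE 0.17, adjusted p = 0.00787). The NK marker Ncr1 was at or under 1.14 CPM in every library. The part of these cells in the results was not tested.

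The genes most like the C1q chains over all 18 libraries, by Pearson correlation of log2 CPM with the mean of C1qa, C1qb and C1qc among 11495 other genes, were Tmsb10 (r = 0.91), Gm9844 (0.91), Vcam1 (0.89), Fst (0.89) and Gngt2 (0.89). Tmsb10 averaged 95.4, 91.1, 140 and 429 CPM and Vcam1, an adhesion molecule, 0, 0.214, 1.99 and 15.8 CPM in DN3 turnover, DN3 autonomy, DP turnover and DP autonomy. For the mean of H2-Ab1, H2-Aa, H2-Eb1 and Cd74 the first was Ctss (r = 0.84), which averaged 23.2 CPM in DP autonomy and at most 3.72 CPM in the other groups, followed by Serpina3g (0.81) and Dnajc4 (0.81). These correlations share library, depth and stage and are given as a description.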

How the data were processed

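RNA of FACS-sorted DN3 and DP cells was measured by RNA sequencing in 18 libraries in 4 groups, assigned from the library titles. Per the labels' protocols, cells were sorted into lysis buffer, oligo-dT beads were used to take RNA from DNA, and a Nextera kit made the libraries. The tools named are HISAT2, featureCounts, FastQC and DESeq2, and the builds mm10 and GRCm38, per the submitters' processing notes, with no settings and no word on strand. The authors deposited raw read counts per gene from featureCounts, per the file headers. They also deposited DESeq2 tables of autonomy against turnover, which hold, per the file headers, a mean normalised signal, a log2 fold change with its SE, the Wald score, a p-value and an adjusted p-value. The signal and score columns were not used for any result here.

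From the counts, 5 comparisons were fitted with edgeR 4.0.16 in R 4.3.3 (TMM, filterByExpr, quasi-likelihood test, Benjamini-Hochberg adjustment over all genes tested, threshold 0.05). The DN3 and DP comparisons used their own groups, and the difference of effects and the stage comparisons used 1 fit of 18 libraries. The SE is the log2 change divided by the square root of F. DESeq2 1.42.0, limma-voom (limma 3.58.1), other scalings, no filter, summed A and B libraries, a replicate block and each library left out were alternatives. A fold against a group with no read sets the mean of the other group against a floor of 3 counts per library. Its bound does not allow for the spread of that other group. Identifiers were matched to GENCODE annotation of GRCm38, which held 22524 of them. On simulated counts with 200 changed genes, 93% of 4-fold changes were recovered in the DN3 design, 94% in the DP design and 31% for the difference. Of 2-fold changes, 23%, 16% and 1% were recovered in the same order, so a gene not called can still differ by that much. The changed genes were picked at random from those tested, and all genes were simulated with the same dispersion. Some listed genes spread more widely, as Tyrobp in DP autonomy at 13.7 ± 23.8 CPM (SD, n = 5). These shares therefore do not give the recovery of the listed genes. Every listed gene is named. A few genes of the other lists are not reported here. The genes and lists were chosen with earlier results of these data known.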

Additional observations from a re-analysis of the deposited data

Results flagged for a closer look

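Within groups of 4 or 5 libraries, the highest value of a gene or sum was set against the others by Dixon's criterion, which chance meets in about 1 in 20 groups. Genes read in fewer than 3 libraries of a group were not examined. In DP autonomy, RP1135 stood alone for Tyrobp at 56.3 CPM (next 5.11), for H2-Aa at 41.3 CPM (next 11.7) and for the summed Fc receptors and adaptors at 72.9 CPM (next 14.8). RP1133 stood alone there for C1qc at 32.7 CPM (next 9.75) and for Lgals3 at 17.98 CPM (next 4.78). In DP turnover, RP1140A stood alone for Cd74 at 6.12 CPM (next 1.67), for H2-Eb1 at 12.1 CPM (next 2.02), for Apoe at 46.0 CPM (next 24.0) and for summed class II genes at 28.7 CPM (next 10.1), and RP1140B for Itgam at 1.79 CPM (next 0.291). In DN3 autonomy, RP1135 stood alone for Lyz2 at 11.5 CPM (next 3.27), for Ncf4 at 4.86 CPM (next 1.06) and for the sum of all listed genes at 181 CPM (next 156), and RP1133 for the summed Fc receptors and adaptors at 4.25 CPM (next 1.77). In DN3 turnover, RP1141B stood alone for Pld4 at 6.39 CPM (next 1.61).

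The effect of autonomy differed between DP and DN3 cells, by edgeR's test of the interaction, for Lyz2 (log2 difference 4.57), Apoe (2.22), Clec12a (9.005), Ncf4 (10.20), Casp1 (8.28) and Clec7a (15.54). The last 4 sizes depend on the prior count, since DP turnover held no read of Clec12a, Ncf4 or Clec7a and 7 reads of Casp1, and they are not estimates of a fold.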

How the results depend on the processing

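In the DN3 comparison 1602 genes were called, 1006 in the fit of all 18 libraries and 507 with A and B libraries summed, and 811 to 1784 with a library left out (811 without turnover RP1140A, 953 without autonomy RP1137, 1060 without autonomy RP1138). Of the listed genes 6 were called, 1 and 3 under these settings, and 6 with any library left out. In the DP comparison 178 genes were called, 739 with DESeq2, 434 with limma-voom, 279 in the fit of all libraries, 16 with A and B summed and 33 to 252 with a library left out (33 without turnover RP1140B, 67 without RP1141A, 59 without RP1141B, 66 without autonomy RP1133, 98 without RP1135). Of the listed genes 2 were called, 1 with limma-voom, 1 with A and B summed and 1 to 3 with a library left out. The difference of effects gave 633 genes, 1037 with DESeq2 and 424 to 684 with a library left out, and 6 listed genes, 11 with DESeq2 and 5 to 9 with a library left out. Stage comparisons with a library left out called 3163 to 4130 genes in turnover and 5144 to 5773 in autonomy, with 4 to 8 and 12 to 18 listed genes.

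Same-numbered DN3 and DP libraries deviated from their group means with correlations of 0.00118 to 0.0521, and 3 of 8 matched their own number best. These values, taken over all genes past the filter, neither show nor exclude a pairing, and the labels state none. The main fits left the numbers out, and a block on them was an alternative. With the number as a replicate block, the difference of effects gave 291 genes and 1 listed gene, Lyz2 (adjusted p = 0.0209), with Clec7a at 0.0664, Casp1 at 0.0751, Clec12a at 0.129, Apoe at 0.134 and Ncf4 at 0.426, and the stage comparisons 3604 genes and 5 listed genes in turnover and 4822 and 12 in autonomy. Under this edgeR block, Mpeg1 (adjusted p = 0.0838) and Lgals3 (0.0916) lost their calls in turnover. H2-Eb1 (0.195) and Lgals3 (0.135) lost theirs in autonomy. No paired analysis was possible for autonomy against turnover because those groups share no number.

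Summed levels moved to 229, 57.0 and 70.5 CPM without Cst3 in DN3 turnover, DN3 autonomy and DP turnover, and to 292 CPM in DP autonomy, and to 141 CPM with plain totals in DN3 autonomy. Over 57 results on single listed genes, 988 alternative values kept direction and side of the threshold, 65 lost a call, 7 gained one and 7 changed sign, none of the latter called. In DN3 cells Fcer1g changed to 0.27 with limma-voom and ranged from -1.04 to 0.32 with a library left out, and Pld4 from -0.64 to 0.46. In DP cells H2-Ab1 changed to -0.0026 and Mpeg1 to -0.25 with limma-voom, and Mpeg1 ranged from -0.25 to 0.81 with a library left out. The causes were not tested. Depth limits the DP values: 3 reads are 0.568 CPM in the shallowest library.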
